A study of Homo sapiens with 4 samples.

Results

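The genes described here encode the proteins that carry out and steer pre-mRNA splicing: SR proteins (SRSF), heterogeneous nuclear ribonucleoproteins (HNRNP), proteins of the small nuclear ribonucleoproteins (SNRP), the SF3A and SF3B subunits, U2AF1 and U2AF2, the PRPF factors and the numbered RNA-binding motif (RBM) genes. Rows were picked by gene name, and 127 of the 17825 listed rows carried such a name. RNA-seq had been done on KYSE150, an established human cell line from an esophageal squamous cell carcinoma, grown in RPMI1640 with fetal bovine serum. There were 2 siCEBPG libraries, made after transfection of an siRNA that targets CEBPG, and 2 Control libraries, made from cells that received a negative control. A single line and a single siRNA duplex were used, so an effect of this duplex beyond CEBPG cannot be told apart from an effect of lower CEBPG. Whether replicate libraries stem from separate cultures is not stated in the labels, so each p-value reflects only how far these 4 libraries spread, and that spread may be technical.

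Splicing removes introns from pre-mRNA in the spliceosome, which is assembled on each intron from small nuclear ribonucleoprotein particles (snRNPs). The U1 particle pairs with the start of the intron, U2AF marks its end, SF3a and SF3b seat the U2 particle on the branch site, and the tri-snRNP of U4, U6 and U5 then joins before the catalytic steps. SR proteins bind exons and mostly favour their use, whereas hnRNPs coat the transcript and often oppose it, so the balance of both classes affects which exons are kept.

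CEBPG, the basic leucine zipper gene targeted by the siRNA, had 214 and 204 counts in the siCEBPG libraries, against 792 and 751 counts in the Control libraries. It fell 3.94-fold, a log2 fold change of -1.98 (SE 0.077, edgeR quasi-likelihood test with Benjamini-Hochberg adjustment, adjusted p = 1.82e-11). The libraries held 15432762 and 15489075 counts in siCEBPG cells and 15536501 and 15515901 counts in Control cells, and levels are given below as CPM, the counts scaled to a common library size after TMM correction. Of the squamous epithelial markers, 9 of 10 were listed, and of these 5 rose, KRT5 and TP63 among them, and 2 fell, KRT14 and KRT17. KRT5 was at 570 ± 33.7 CPM in siCEBPG cells and 495 ± 0.985 CPM in Control cells (SD, n = 2 each), and KRT14 was at 4.54 ± 0.220 CPM in siCEBPG cells and 9.68 ± 0.580 CPM in Control cells. Of 16 markers of immune, stromal, endothelial, retinal and neuronal cells, 5 were listed, and they summed to 15.8 and 13.1 CPM in the siCEBPG libraries, against 15.3 and 13.3 CPM in the Control libraries. RBFOX3, a neuronal marker, was called higher, with 11 and 11 counts in siCEBPG libraries and 3 and 4 counts in Control libraries, and the part of other cell types in the results was not tested.

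The splicing genes were mostly lower in siCEBPG cells. Of 118 rows with enough counts to be tested, 66 fell (55.9%) and 10 rose (8.47%) at an adjusted p under 0.05. Over all 14207 genes tested, 28.8% were called lower and 25.5% higher. The median log2 fold change was -0.21 over these rows and 0.0048 over all genes tested. Most changes were modest: 17 rows fell at least 1.5-fold, 3 fell at least 2-fold and 2 rose at least 1.5-fold. The 3 were SRSF2, HNRNPR and HNRNPAB. Of the falls 47, and of the rises 4, kept their call in each alternative run. The rises numbered 18 with total counts alone as the scaling, where 4939 of all genes tested were higher, against 3617 with TMM scaling. With 1 library left out, fewer rises were called among splicing rows and among all genes. In bulk RNA, fewer cells of a type and less RNA per cell cannot be told apart.

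Splicing genes are abundant, and abundant genes were lower more often in these data. Among the 4913 genes that averaged 50 CPM or more, 44.4% were called lower and 27.2% higher. Among the 78 splicing genes at that level, 56 fell (71.8%) and 6 rose (7.69%), with a median log2 fold change of -0.29, against -0.07 over all genes at that level. Below 50 CPM, 10 of 40 tested splicing rows fell (25.0%) and 4 rose (10.0%), beside 20.6% and 24.5% of all genes tested below that level. The lower share of calls was thus nearer to the background in the weakly expressed rows than in the abundant ones. Row type differed between these levels too. The weakly expressed rows included all 16 tested pseudogene, antisense and second rows, of which 2 fell and 2 rose.

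Rows that make mRNA held nearly all of the calls. Of 102 such rows, each of them tested, 64 fell (62.7%) and 8 rose (7.84%). The shares were 28.8% and 25.5% over all genes tested, and 44.4% and 27.2% over genes from 50 CPM. The other 25 rows were pseudogenes, antisense transcripts, a readthrough transcript and a second SRSF10 row, and of 16 tested, 2 fell (HNRNPA1P33 and HNRNPH1P3) and 2 rose (HNRNPA1P54 and RBM26-AS1). Reads of a processed pseudogene can belong to its parent gene, so those 3 pseudogene values are uncertain. The calls of HNRNPH1P3 and HNRNPA1P54 were lost without siCEBPG replicate 1 or either Control library. The rows HNRNPCP2, HNRNPA1P10, HNRNPH1P1, HNRNPKP2, HNRNPA1P59, HNRNPKP4, HNRNPUL2-BSCL2, SNRPGP2 and RBM22P2 had too few counts to be tested, and SNRPN was not analysed here.

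The classes differed in how many of their members moved. Of the SRSF rows, 8 of 12 fell and 0 rose. In the HNRNP class 21 of 33 tested rows fell and 1 rose, and in the SNRP class 11 of 12 fell and 0 rose. For SF3A and SF3B genes the counts were 7 of 9 lower and 1 higher, and both U2AF genes fell. Among PRPF genes 5 of 13 fell and 1 rose, and among RBM rows 12 of 37 fell (32.4%) and 7 rose (18.9%). The RBM shares lay near the 28.8% and 25.5% of all genes tested. With 1 library left out, fewer PRPF rows were called lower and fewer RBM rows were called in either direction. Calls over all genes tested were also fewer in each direction in those runs. The class medians were -0.35 for SRSF, -0.32 for HNRNP, -0.39 for SNRP, -0.34 for SF3A and SF3B and -0.45 for U2AF, whereas they were -0.04 for PRPF and -0.0055 for RBM. The first 5 medians stayed below 0 under each scaling tried, while those of PRPF and RBM turned positive with upper-quartile factors (0.03 and 0.06) and with total counts alone (0.06 and 0.09). Those scalings also moved the median of all genes to 0.07 and 0.10. No test of the difference between classes was made.

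**Figure D1:**
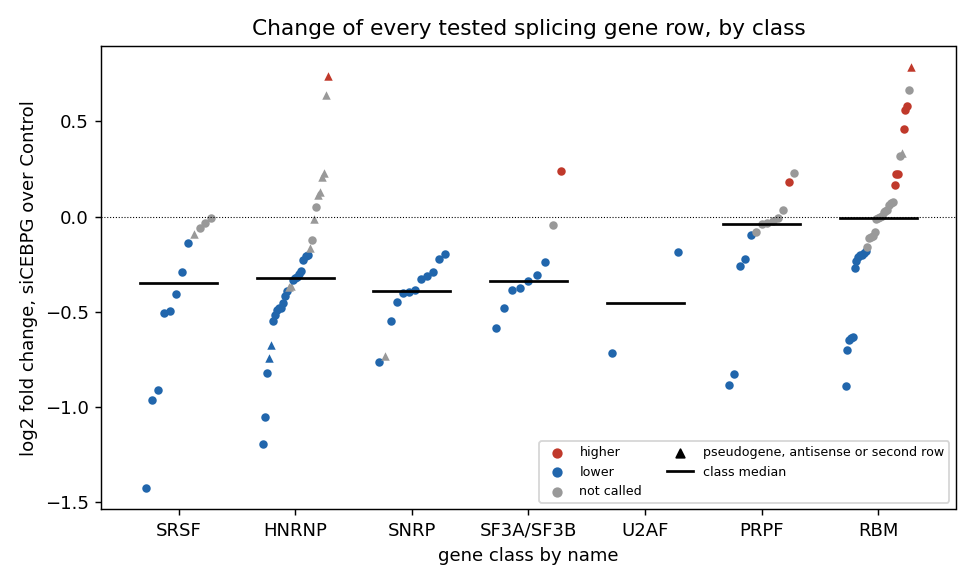
Log2 fold change (siCEBPG over Control, vertical axis) of each tested row by class, coloured blue when called lower, red when called higher and grey when not called, with triangles for pseudogene, antisense and second rows and a line at each class median. The SRSF, HNRNP, SNRP, SF3A/SF3B and U2AF medians lie between -0.45 and -0.32, and the PRPF and RBM medians lie near 0.

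Summed over its rows, the HNRNP class took 5202 and 5135 CPM in the siCEBPG libraries, against 7389 and 7308 CPM in the Control libraries. The SRSF class summed to 1394 and 1390 CPM in siCEBPG cells and 1992 and 2012 CPM in Control cells, and the U2AF pair to 338.8 and 349.8 CPM in siCEBPG cells and 498.0 and 505.8 CPM in Control cells. These 3 sums had the lowest log2 ratios, at -0.51, -0.52 and -0.54 for HNRNP, SRSF and U2AF. The RBM sum differed least, with 2726 and 2722 CPM in siCEBPG libraries and 2904 and 2919 CPM in Control libraries, a log2 ratio of -0.10 that came to 0.0028 with total counts alone. Together the 127 rows took 1.54% of the counts in each siCEBPG library and 1.82% in each Control library.

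**Figure D2:**
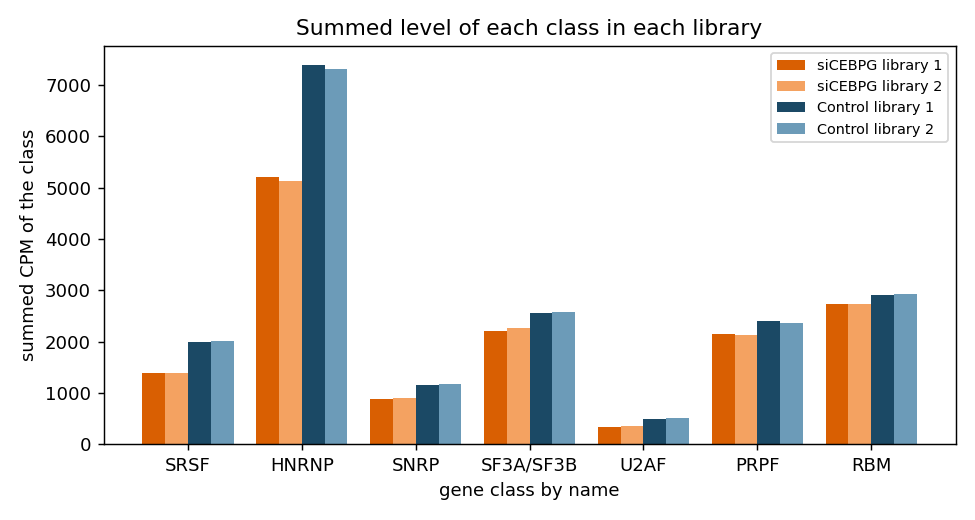
Summed CPM (vertical axis, from 0) of each class in each library, with both siCEBPG bars left of both Control bars. Within each class both siCEBPG bars are below both Control bars, with the widest gap in CPM for HNRNP genes (5202 and 5135 against 7389 and 7308 CPM).

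Transcript sequence was searched for a word linked to lower levels in these libraries. Over 11724 genes with a GENCODE v29 3′ UTR of at least 50 bases, the 815 with the 7-letter word GGCTATT in that UTR had a median log2 fold change of -0.34, and those without it had a median of -0.0032. The word was chosen with earlier results of these data known. Among the splicing genes 7 of 102 had it (6.86%), beside 6.95% of all genes searched. Of these 7, 4 fell (57.1%), SRSF2, SRSF3 and SNRPB2 among them, beside 60.7% lower among all genes with the word. SRSF8, RBM28 and RBM20 did not pass the test. Of the 95 splicing genes without the word, 60 fell (63.2%) and 8 rose, with a median of -0.22, beside 30.8% lower among all genes without it. The sites of SRSF2, SRSF3 and SNRPB2, which fell, of SRSF8, which was not called, and of CEBPG are shown on the transcribed strand, with the word in capitals.
SRSF2: gaacaagcaactGGCTATTgaaaaggttat
SRSF3: catttagattgtGGCTATTaggaattttta
SNRPB2: atttatgtttaaGGCTATTgattcagtcct
SRSF8: tggaagctgtgaGGCTATTgcagtaatcca
CEBPG: agacccattggaGGCTATTttctgggatca

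On the GRCh38 assembly, the capitals lie at chr17:76735067-76735073 (minus strand) for SRSF2. They lie at chr6:36604101-36604107 for SRSF3, chr20:16741861-16741867 for SNRPB2, chr11:95070690-95070696 for SRSF8 and chr19:33379810-33379816 for CEBPG, all on the plus strand. All 5 sites are in 3′ UTRs. A second word, CGGAGAA, was in the 3′ UTR of 0 of 102 splicing genes, beside 2.16% of all genes searched. A match is a description of the letters and not a binding site.

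Promoters were searched for TGATGNAA, the core of the C/EBP-ATF composite element, on both strands from 250 bases before to 50 bases after the RefSeq gene start. Of 75 splicing genes with a promoter sequence 1 held it, PRPF4, beside 1.47% of 7094 promoters in all. Its match is shown with the motif in capitals, in the opposite orientation to the gene, at chr9:113275576-113275583 of GRCh38.p14.
PRPF4 promoter: cctactacgacTTCCATCAtgctccgcgcc

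SRSF2, an SR protein that binds exonic enhancers, had the largest fold change of the rows picked by name. It had 1087 and 993 counts in the siCEBPG libraries, against 2539 and 2712 counts in the Control libraries. Its level was 65.1 ± 4.14 CPM in siCEBPG cells and 175 ± 8.41 CPM in Control cells (SD, n = 2 each), a 2.69-fold fall (log2 fold change -1.43, SE 0.054, edgeR adjusted p = 1.44e-11). Its groups did not overlap.

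SRSF1, the prototype SR protein, had 2326 and 2360 counts in siCEBPG libraries and 4226 and 4362 counts in Control libraries. The fall was 1.95-fold (log2 fold change -0.97, SE 0.040, adjusted p = 3.62e-11). SRSF7, a shuttling SR protein with a zinc knuckle, had 1749 and 1694 counts in siCEBPG libraries and 2997 and 3084 counts in Control libraries, a fall of 1.88-fold (log2 fold change -0.91, SE 0.043, adjusted p = 1.59e-10). For both genes every siCEBPG library was below every Control library.

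SRSF3, the smallest SR protein, had 3574 and 3655 counts in siCEBPG libraries and 4835 and 4743 counts in Control libraries and fell 1.41-fold (adjusted p = 2.91e-08). SRSF11 fell 1.42-fold and SRSF6 fell 1.33-fold, and SRSF9 had a log2 fold change of -0.29 (adjusted p = 2.73e-05). SRSF4 also passed the threshold, at -0.14 and an adjusted p of 0.0447, but its call was lost with each library left out in turn and in 10 of 11 alternatives in all.

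SRSF5, SRSF8 and SRSF10 did not pass the test. SRSF5 had 3771 and 3735 counts in siCEBPG libraries and 3488 and 3590 counts in Control libraries, with a log2 fold change of -0.01 (SE 0.038, adjusted p = 0.876). The ratio of SRSF2 to SRSF5 counts, which does not depend on library scaling, was 0.288 and 0.266 in the siCEBPG libraries and 0.728 and 0.755 in the Control libraries. This and the other ratios given below were chosen after the values were seen.

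The order of SRSF levels also differed between groups. On the deposited RPKM scale, which divides by length, SRSF6 was highest in siCEBPG cells at 53.0, whereas SRSF1 was highest in Control cells at 82.8. In siCEBPG cells SRSF1, SRSF5, SRSF9 and SRSF3 lay between 44.2 and 45.3 RPKM, too close to be put in order. SRSF2 ranked 7 in siCEBPG cells at 22.3 RPKM and 4 in Control cells at 56.0 RPKM.

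**Figure D3:**
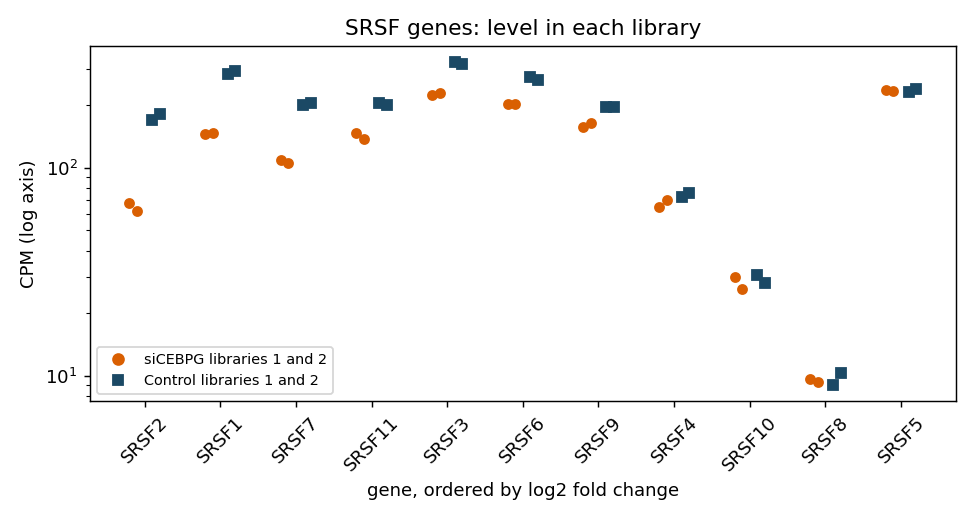
CPM (vertical log axis) of each SRSF gene in each library, with siCEBPG circles left of Control squares and genes ordered by log2 fold change; levels compare within a gene, not between genes. The circles lie below the squares from SRSF2 to SRSF4, and the groups overlap for SRSF10, SRSF8 and SRSF5.

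Among the 21 HNRNP rows that make mRNA, 19 fell and 0 rose, with a median log2 fold change of -0.39. HNRNPR, an RNA-binding protein also known for its part in mRNA transport in neurons, had 1575 and 1515 counts in the siCEBPG libraries, against 3399 and 3251 counts in the Control libraries. It fell 2.30-fold (log2 fold change -1.20, SE 0.044, adjusted p = 1.28e-11). HNRNPAB, which binds AU-rich and CArG-box sequences, had 3268 and 3411 counts in siCEBPG libraries and 6512 and 6475 counts in Control libraries, a 2.07-fold fall (log2 fold change -1.05, SE 0.038, adjusted p = 9.60e-12). HNRNPAB was the most abundant member per length in both groups, at 101 RPKM in siCEBPG cells and 195 RPKM in Control cells.

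HNRNPA2B1, which binds UAG-containing motifs and takes part in splicing and RNA sorting, had the most counts of its class. They were 10955 and 10730 in siCEBPG libraries and 18357 and 17669 in Control libraries, a fall of 1.77-fold (log2 fold change -0.83, SE 0.035, adjusted p = 4.84e-11). Its close relative HNRNPA1, a silencer of exons, had 1563 and 1560 counts in siCEBPG libraries and 1931 and 1978 counts in Control libraries, with a log2 fold change of -0.42 (SE 0.045, adjusted p = 1.39e-06). The ratio of HNRNPA2B1 to HNRNPA1 counts was 7.01 and 6.88 in siCEBPG libraries and 9.51 and 8.93 in Control libraries. HNRNPA1 has many processed copies, so how its reads were divided is uncertain: the pseudogene row HNRNPA1P33 had 239 and 239 counts in siCEBPG libraries and 340 and 412 counts in Control libraries.

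The other hnRNP genes that fell had smaller changes, from -0.55 to -0.20. HNRNPC, which binds uridine tracts, HNRNPU, a nuclear scaffold protein, and HNRNPK, which binds poly(C), had log2 fold changes of -0.48 (SE 0.035), -0.48 (SE 0.035) and -0.45 (SE 0.039). HNRNPC had 4991 and 5043 counts in siCEBPG libraries and 6610 and 6528 counts in Control libraries. HNRNPH1 at -0.55, HNRNPH3 at -0.52 and HNRNPF at -0.49, all readers of G-tracts, fell as well. HNRNPU overlaps HNRNPU-AS1, whose log2 fold change was -0.17 (adjusted p = 0.493), and whether counting used strand was not given in the labels or headers.

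The remaining calls lay between -0.39 for HNRNPD, a regulator of AU-rich mRNAs, and -0.20 for HNRNPDL. They included HNRNPL, HNRNPA0, HNRNPLL, HNRNPA3, HNRNPUL1, HNRNPUL2 and HNRNPM. The call of HNRNPLL was lost without Control replicate 2, and that of HNRNPUL2 with either Control library left out.

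HNRNPH2, the paralog of HNRNPH1, did not pass the test, with 1433 and 1374 counts in siCEBPG libraries and 1282 and 1261 counts in Control libraries. Its log2 fold change was 0.05 (SE 0.049, adjusted p = 0.41). The ratio of HNRNPR to HNRNPH2 counts was 1.10 and 1.10 in siCEBPG libraries and 2.65 and 2.58 in Control libraries. HNRNPA1L2, a weakly expressed relative of HNRNPA1, did not pass either, at -0.13 (adjusted p = 0.649).

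**Figure D4:**
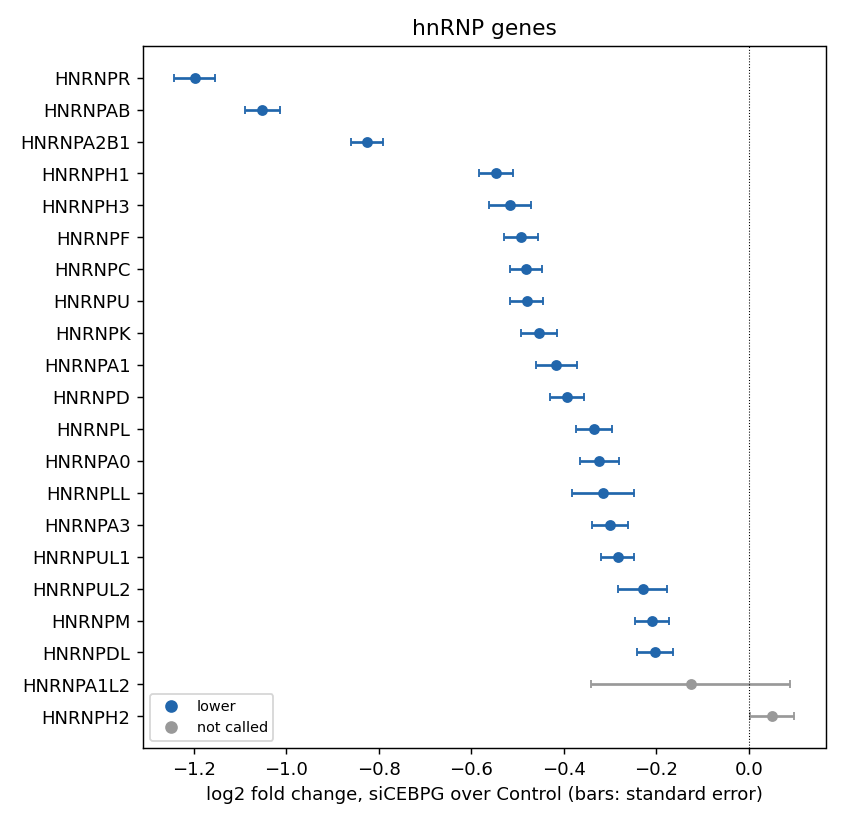
Log2 fold change (siCEBPG over Control, horizontal axis) of the 21 HNRNP rows that make mRNA, with bars for the standard error. The 19 blue points are called lower, from HNRNPR at -1.20 to HNRNPDL at -0.20, and the 2 grey points are HNRNPA1L2 and HNRNPH2.

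The snRNP protein genes with an SNRP name fell together, unlike the 26 other snRNP genes, of which 14 fell and 4 rose. Of the SNRP rows that make mRNA, 11 of 11 were called lower. These include the 7 Sm proteins, which form the ring shared by the U1, U2, U4 and U5 particles, with a median log2 fold change of -0.33. SNRPB, which encodes Sm B, was highest per length in the class and had 2717 and 2818 counts in siCEBPG libraries and 3655 and 3953 counts in Control libraries. It fell 1.47-fold (log2 fold change -0.55, SE 0.045, adjusted p = 7.46e-08). The other Sm genes had smaller changes, of -0.40 for SNRPG, -0.39 for SNRPD1, -0.33 for SNRPF, -0.31 for SNRPE, -0.29 for SNRPD3 and -0.20 for SNRPD2. The calls of SNRPF (with either Control library left out), SNRPE (without Control replicate 2) and SNRPD2 (without siCEBPG replicate 1 or Control replicate 2, and with total counts alone) were lost in those settings.

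The largest fall of the SNRP class was in a U2 gene. SNRPA1, the U2 A′ protein, had 423 and 418 counts in the siCEBPG libraries, against 689 and 652 counts in the Control libraries, a 1.70-fold fall (log2 fold change -0.77, SE 0.068, adjusted p = 1.76e-07). Its partner SNRPB2, the U2 B″ protein, had 1124 and 1103 counts in siCEBPG libraries and 1411 and 1436 counts in Control libraries, with a log2 fold change of -0.45 (SE 0.048, adjusted p = 1.62e-06). The U1 genes SNRPC and SNRPA had log2 fold changes of -0.40 (adjusted p = 3.44e-06) and -0.22 (adjusted p = 0.000734).

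The SF3a genes SF3A1, SF3A2 and SF3A3, whose products bind U2, had log2 fold changes of -0.31, -0.38 and -0.38 (edgeR adjusted p = 3.78e-06, 2.63e-06 and 1.64e-06), and all 3 fell. The 6 SF3b genes with an SF3B name were mixed, with 4 lower and 1 higher. PHF5A, an SF3b subunit outside the naming rule, fell more than any of these (log2 fold change -1.15, edgeR adjusted p = 2.82e-08). SF3B4, which contacts the pre-mRNA upstream of the branch site, had 2906 and 2804 counts in siCEBPG libraries and 3911 and 4115 counts in Control libraries, a fall called by the test (log2 fold change -0.58, SE 0.042, adjusted p = 1.67e-08). SF3B5 at -0.48, SF3B14 at -0.34 and SF3B3, a scaffold of the complex, at -0.24 fell too. SF3B14 is the older symbol of SF3B6, the branch-site adenosine-binding subunit.

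SF3B2, the direct partner of SF3B4, was the SF3 gene that rose. It had 7432 and 7727 counts in the siCEBPG libraries, against 6073 and 5985 counts in the Control libraries, and rose 1.18-fold (log2 fold change 0.24, SE 0.036, adjusted p = 5.28e-05). SF3B1, the large HEAT-repeat subunit that is recurrently mutated in leukaemia, did not pass the test, with 5491 and 5650 counts in siCEBPG libraries and 5409 and 5355 counts in Control libraries (log2 fold change -0.04, adjusted p = 0.335). The ratio of SF3B4 to SF3B2 counts was 0.391 and 0.363 in siCEBPG libraries and 0.644 and 0.688 in Control libraries.

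The subunits of U2AF, which act as a heterodimer, fell by different amounts. U2AF2, the large subunit that binds the polypyrimidine tract, had 3428 and 3481 counts in siCEBPG libraries and 5256 and 5416 counts in Control libraries, a 1.65-fold fall (log2 fold change -0.72, SE 0.038, adjusted p = 5.65e-10). U2AF1, the small subunit that reads the AG at the intron's end, had 1987 and 2109 counts in siCEBPG libraries and 2215 and 2156 counts in Control libraries (log2 fold change -0.19, SE 0.045, adjusted p = 0.00276). The U2AF1 call was lost with total counts alone and without siCEBPG replicate 1, Control replicate 1 or Control replicate 2. The ratio of U2AF2 to U2AF1 counts was 1.73 and 1.65 in siCEBPG libraries and 2.37 and 2.51 in Control libraries.

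Of the 5 tri-snRNP genes with a PRPF name, PRPF4 alone was called, and it fell. Tri-snRNP genes under other names are among the other snRNP genes given below, where calls went in both directions. PRPF4, which sits with PRPF3 on the paired U4 and U6 RNAs, had 1715 and 1681 counts in the siCEBPG libraries, against 2977 and 2911 counts in the Control libraries. The fall was 1.85-fold (log2 fold change -0.89, SE 0.042, adjusted p = 1.87e-10). Its partner PRPF3 had 1091 and 1073 counts in siCEBPG libraries and 1013 and 1075 counts in Control libraries and did not pass the test (log2 fold change -0.04, adjusted p = 0.54). The ratio of PRPF4 to PRPF3 counts was 1.57 and 1.57 in siCEBPG libraries and 2.94 and 2.71 in Control libraries.

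PRPF8, the U5 protein at the core of the catalytic centre, had 14367 and 14372 counts in siCEBPG libraries and 13813 and 13313 counts in Control libraries. Its log2 fold change was -0.01 (SE 0.034, adjusted p = 0.837). PRPF6, which bridges the tri-snRNP, and PRPF31, which binds U4, were also not called, at -0.03 and 0.03.

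The PRPF genes of other roles named here changed by smaller amounts. PRPF38B had a log2 fold change of -0.26 (adjusted p = 0.000117), and PRPF4B, a kinase of the spliceosome, one of -0.22 (adjusted p = 0.00127), which was not called with either Control library left out. PRPF38A rose by 0.18 on the log2 scale (adjusted p = 0.00271), and this call was lost without siCEBPG replicate 1 and with either Control library left out. PRPF19, the ubiquitin ligase of the complex that activates the spliceosome, passed narrowly at -0.09 (adjusted p = 0.0484), was not called in 9 of 11 alternatives, each left-out library among them, and was at 0.00442 with total counts alone. PRPF18, PRPF39 and PRPF40B did not pass the test.

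**Figure D5:**
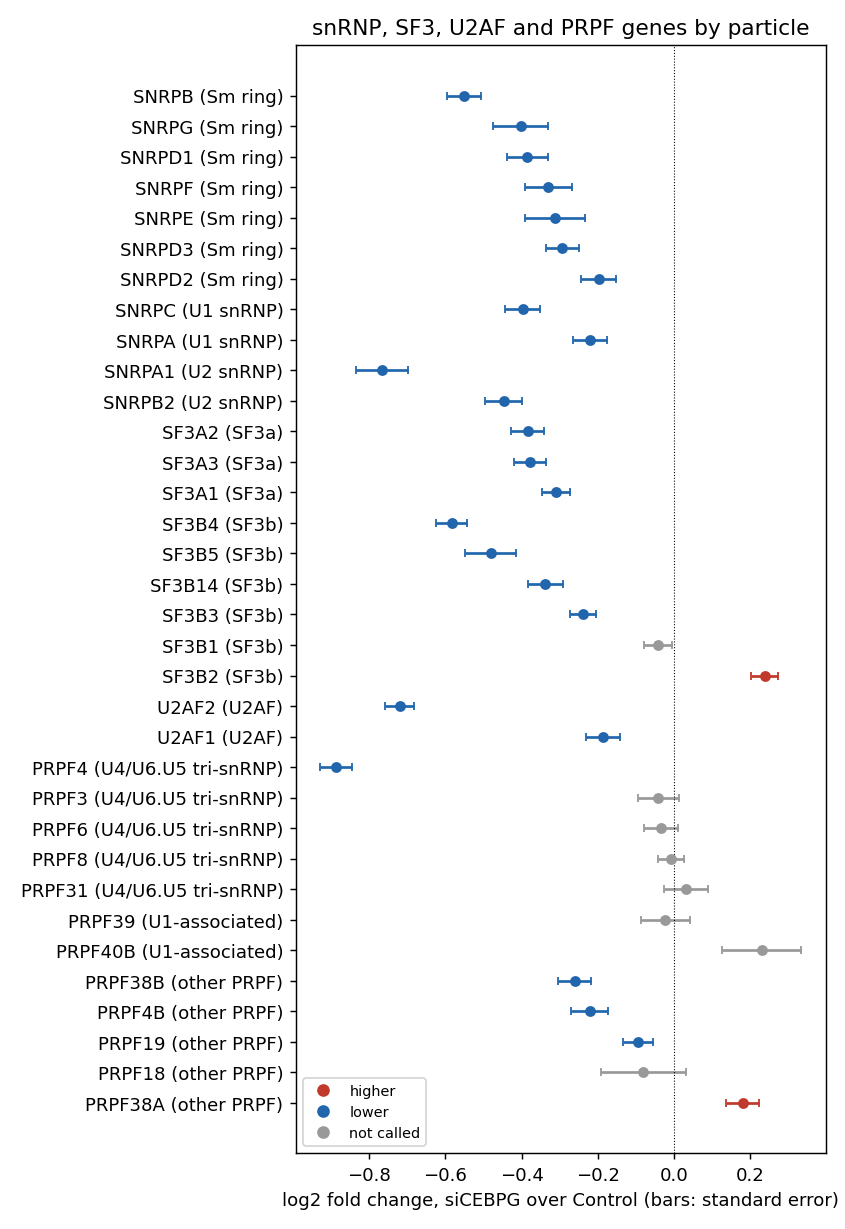
Log2 fold change (siCEBPG over Control, horizontal axis) of the SNRP, SF3A/SF3B and U2AF genes and of 12 PRPF genes, grouped by particle, with blue for called lower, red for called higher, grey for not called and bars for the standard error. The SNRP genes are all called lower, while within SF3b, U2AF and the tri-snRNP the points spread, with SF3B4 at -0.58 and SF3B2 at 0.24, and PRPF4 at -0.89 and PRPF8 at -0.01.

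The RBM genes, which share only an RNA-binding motif and have varied roles, had calls in both directions, at shares near those of all genes tested. RBM47, an epithelial mRNA-binding protein and cofactor of APOBEC1, had 1169 and 1127 counts in siCEBPG libraries and 1988 and 2002 counts in Control libraries, a 1.85-fold fall (log2 fold change -0.89, SE 0.047, edgeR adjusted p = 5.59e-10). RBM14, a transcriptional coactivator found in paraspeckles, had 967 and 930 counts in siCEBPG libraries and 1392 and 1501 counts in Control libraries (log2 fold change -0.70, SE 0.055, adjusted p = 4.26e-08). RBM12 fell too, with 1427 and 1441 counts in siCEBPG libraries and 2137 and 2045 counts in Control libraries (log2 fold change -0.64, SE 0.046, adjusted p = 1.78e-08). RBM14 shares its locus with RBM4, and RBM12 with CPNE1, so the assignment of their reads is uncertain.

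The other RBM falls were smaller or came from few counts. RBM42 had a log2 fold change of -0.27 (adjusted p = 0.000485), lost with either Control library left out. RBM39, a coactivator related to U2AF2, had 3961 and 3795 counts in siCEBPG libraries and 4254 and 4112 counts in Control libraries (log2 fold change -0.20, adjusted p = 0.000493), lost without Control replicate 1. RBM24, at 68 and 34 counts in siCEBPG libraries and 81 and 69 counts in Control libraries, and RBM34, at 24 and 26 counts in siCEBPG libraries and 35 and 38 counts in Control libraries, rest on low counts and were both lost in several settings. RBM12B, RBM15, RBM17, RBM22 and RBM38 had log2 fold changes from -0.23 to -0.18, and each lost its call without at least 1 library.

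3 of the rises kept their call in each of the 11 alternatives: RBM7, RBM43 and RBM15B. RBM7, a subunit of the complex that guides nuclear RNA to the exosome, had 582 and 580 counts in siCEBPG libraries and 347 and 382 counts in Control libraries (log2 fold change 0.58, SE 0.074, adjusted p = 8.91e-06). RBM15B, a partner of the m6A methyltransferase, had 1214 and 1199 counts in siCEBPG libraries and 834 and 810 counts in Control libraries (log2 fold change 0.46, SE 0.052, adjusted p = 2.62e-06). RBM43 had 286 and 284 counts in siCEBPG libraries and 176 and 187 counts in Control libraries (log2 fold change 0.56, SE 0.096, adjusted p = 0.000169).

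RBM5, RBM6 and RBM23 rose by 0.22, 0.17 and 0.22. RBM5 and RBM6 are neighbouring genes known as regulators of alternative splicing. The calls of RBM5 (without siCEBPG replicate 2 or either Control library), RBM6 (without any 1 of the 4 libraries, and in DESeq2) and RBM23 (with either Control library left out) were lost in those settings. The antisense row RBM26-AS1 rose on 57 and 83 counts in siCEBPG libraries and 42 and 34 counts in Control libraries, and lost its call without siCEBPG replicate 2 or either Control library. RBM26 itself, whose reads cannot be told apart from it without strand, was at 0.02 (adjusted p = 0.746).

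Several RBM genes with core or stress roles did not pass the test. RBM3, a cold-inducible RNA-binding protein and the highest of the class per length, had 5377 and 5554 counts in siCEBPG libraries and 4980 and 5042 counts in Control libraries (log2 fold change 0.03, adjusted p = 0.479). RBM8A, a core protein of the exon junction complex, was at 0.06 (adjusted p = 0.349), RBM25, a U1-associated regulator, at 0.01 (adjusted p = 0.924) and RBM10, a repressor of exon inclusion, at -0.10 (adjusted p = 0.0931).

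Splicing genes outside the naming rule, taken from 7 lists by textbook role, were also called lower more often than higher. Of 132 such genes tested, 73 fell (55.3%) and 17 rose (12.9%), with a median log2 fold change of -0.16, beside 28.8% lower and 25.5% higher over all genes tested and 44.4% and 27.2% over those from 50 CPM. SMN and Sm-assembly genes, which load the Sm ring onto snRNA, fell in 12 of 13 cases and 0 rose, with a median of -0.40. Fewer of these calls were made when a library was left out, as was true of calls over all genes. SMN1 had 122 and 99 counts in siCEBPG libraries and 195 and 235 counts in Control libraries (log2 fold change -1.05, adjusted p = 1.02e-05), but SMN1 and SMN2 are near-identical and the division of their reads is uncertain. Of the other splicing regulators 24 of 35 fell and 5 rose, led by TAF15, an RNA-binding protein of the FET family, with 613 and 583 counts in siCEBPG libraries and 1631 and 1615 counts in Control libraries (log2 fold change -1.53, SE 0.053, adjusted p = 6.77e-12). MBNL3 rose by 0.64 in that list, on low counts of 87 and 88 in siCEBPG libraries and 53 and 52 in Control libraries. Its call was lost in DESeq2 and without Control replicate 2 (log2 fold change 0.626).

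The kinases that phosphorylate SR proteins were mixed, with 3 of 7 lower (42.9%) and 2 higher (28.6%). Over all genes tested the shares were 28.8% and 25.5%, and over genes from 50 CPM they were 44.4% and 27.2%. The kinase shares lay near the latter. SRPK1, a largely cytoplasmic SR kinase, had 851 and 805 counts in siCEBPG libraries and 1537 and 1565 counts in Control libraries (log2 fold change -0.998, SE 0.052, adjusted p = 5.02e-10). SRPK2 rose by 0.27 (adjusted p = 0.000839). Its call was lost without siCEBPG replicate 1 (log2 fold change 0.267), siCEBPG replicate 2 (0.28) or Control replicate 2 (0.198). Of 15 SR-related genes 6 fell (40.0%), led by TRA2B at -0.72, an activator of exon inclusion, and 2 rose (13.3%), with SCAF11 at 0.18. The SCAF11 call was lost without a filter on low counts and with each library left out in turn (log2 fold change 0.108 to 0.245).

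Among 26 other snRNP genes 14 fell (53.8%) and 4 rose (15.4%). Their changes ran from SNRNP70, the U1 70K protein, at -0.57 to RNPC3, of the minor spliceosome, at 0.48. The RNPC3 call was lost without siCEBPG replicate 1 (log2 fold change 0.373) or Control replicate 2 (0.335). Of 13 other early and branch-site factors 7 fell (53.8%) and 2 rose (15.4%), with PHF5A, a small SF3b subunit, at -1.15 and SUGP1 at 0.52. Of the 23 factors of the catalytic steps, with a median of 0.02, 7 fell (30.4%, beside 28.8% of all genes tested), led by CDC40 at -0.76, and 2 rose, led by SLU7 at 0.30, both acting around the second catalytic step. Leaving out 1 library brought the falls among other snRNP genes to between 6 (without Control replicate 2) and 11 and the rises of SR kinases to 0 or 1, of SR-related genes to 0, of early factors to 1, of catalytic-step factors to between 0 and 2 and of other regulators to between 2 and 4. Over all genes tested, calls in each direction were fewer in those runs too. The SLU7 call was lost without Control replicate 1 (log2 fold change 0.327) or Control replicate 2 (0.265). In the authors' deposited table, 59 of the 127 listed splicing rows chosen by name were lower and 7 of the 127 higher at an adjusted p under 0.05. Over all 17825 listed genes the shares were 18.0% and 12.4%.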

How the data were processed

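The deposited table holds a whole-number count for each gene name and library, and these counts as deposited entered every test. The submitters' processing notes list the hg19 build and, without saying what each did, RSEM 1.2.12, HISAT2 2.0.4 and Bowtie2 2.2.5. RSEM gives estimates, so the counts may have been rounded by the authors (annotation and strand use not given in the sources used here). Columns with the authors' mean signal and Wald score, named so per the file headers, were not used. Per the file headers the authors also deposited RPKM values, used here to compare levels between genes, and their own log2 fold change with its standard error and adjusted p-value, used only where the authors' table is named.

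Counts were tested with edgeR 4.0.16 in R 4.3.3 (TMM factors, low counts removed by filterByExpr with min.count 10, two-sided quasi-likelihood F test, Benjamini-Hochberg over 14207 genes, threshold 0.05). The standard error is the log2 fold change divided by the root of F. Alternatives were DESeq2 1.42.0, other scalings and filters, a replicate block and each library left out. On simulated counts for siCEBPG over Control with 14207 genes, the test recovered 56% of 1.25-fold, 68% of 1.5-fold and 92% of 2-fold changes and called 5 of 14007 unchanged genes. The simulation changed only 50 genes at each fold size, whereas 7715 genes were called in the real libraries. Its rates therefore need not hold for the real libraries. Library pairs differed by more than sampling noise (chi-square per gene 1.84 for siCEBPG and 1.50 for Control), so none was counted as a copy. With 2 libraries per group precision is limited.

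Named genes were a set fixed by role, of which SNRPN was not analysed here, the 4 largest called falls and rises of each class whose mean reached 5 CPM and whose groups did not overlap, the most abundant gene per length in each class, and the most changed called gene in each direction of each list. Of the genes this rule named, 1 is not reported here. Other genes were named after their values were seen. The members, lists and sequence words were chosen with earlier results of these data known. The 3′ UTRs came from GENCODE v29 (GRCh38) and promoters from RefSeq (GRCh38.p14), matched by symbol with each annotated gene used once, and hg19 coordinates were not used.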

Additional observations from a re-analysis of the deposited data

How the results depend on the processing

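Of the 10 splicing rows called higher, 4 kept the call in each of their alternatives and 6 lost it in at least 1. Of the 66 called lower, 47 kept it and 19 lost it, and 1 of these, PRPF19, changed sign. For the named genes, 617 comparisons with an alternative kept direction and side of the threshold, 37 lost the threshold, 6 gained it and 11 changed sign. The count of falls among splicing rows stayed within 1.5 times of 66 in each alternative run. The low counts of RBM24, RBM34 and the pseudogenes limit their calls, and with 2 libraries per group leaving 1 out assumes that the lone library varies like the other group. Same-numbered libraries shared little deviation from their group means (correlation 0.0369), which cannot show whether they were handled as pairs, and the labels do not say. With the replicate block 69 splicing rows were lower and 10 higher, beside 4319 and 3811 of all genes. Over all genes 46.9% of calls were higher, against 57.1% with upper-quartile factors and 61.6% with total counts alone. Leaving out any 1 library made calls over all genes fewer in each direction. The cause of the changes below was not tested.

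The sign changes were SF3B1 (0.0268 with upper-quartile factors, 0.056 with total counts alone), PRPF8 (0.0605, 0.0897, 0.0246 with the stricter filter, and -0.0395 to 0.0145 with a library left out), PRPF19 (0.00442 with total counts alone) and RBM25 (-0.00383 in DESeq2, -0.00832 without a filter, and -0.0252 to 0.0389 with a library left out).

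With total counts alone 18 splicing rows were higher. With TMM scaling, 6 were higher among rows of at least 50 CPM, an alternative chosen after seeing the data, as were the mRNA rows and the rows without GGCTATT. HNRNP rises numbered 0 in DESeq2, without a filter, with the stricter filter, in mRNA rows and from 50 CPM, and 2 with upper-quartile factors and with total counts. PRPF rises numbered 2 with upper-quartile factors and the stricter filter, and 3 with total counts. U2AF falls came to 1, RBM rises to 12 and RBM falls to 5 with total counts, and RBM rises to 4 from 50 CPM.

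Rises in the other lists were 1 (DESeq2) and 1 (no filter) for SR kinases, and 1 (DESeq2), 4 (total counts) and 0 (no filter) for SR-related genes. For other snRNP genes they were 7 (upper-quartile) and 8 (total counts), with 9 falls. Early factors had 1 (DESeq2), 4 (total counts) and 1 (no filter), catalytic-step factors 1 (DESeq2), 5 (upper-quartile), 8 (total counts) and 4 (stricter filter), and other regulators 2 (DESeq2) and 3 (no filter).

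Class medians with upper-quartile factors and total counts were -0.278 and -0.249 for SRSF, -0.253 and -0.224 for HNRNP, -0.321 and -0.292 for SNRP, -0.269 and -0.24 for SF3A/SF3B, -0.383 and -0.354 for U2AF, 0.0286 and 0.0579 for PRPF, and 0.0642 and 0.0935 for RBM. With the stricter filter they were -0.372, -0.383, -0.351, -0.305, -0.419, -0.00717 and 0.0223 in the same order. HNRNP was at -0.355 in DESeq2 and without a filter, where SNRP was at -0.398 and RBM at -0.018. In mRNA rows SRSF, HNRNP and SNRP were at -0.406, -0.394 and -0.385, and from 50 CPM at -0.499, -0.417 and -0.358, with PRPF at -0.0679. Without GGCTATT, SRSF was at -0.29 and SNRP at -0.385.

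Log2 ratios of the class sums with total counts and upper-quartile factors were -0.425 and -0.455 for SRSF, -0.409 and -0.438 for HNRNP, -0.276 and -0.305 for SNRP, -0.1 and -0.13 for SF3A/SF3B, -0.445 and -0.474 for U2AF, -0.0614 and -0.0906 for PRPF, and 0.00284 and -0.0264 for RBM. With deposited RPKM they were -0.479, -0.425, -0.275 and -0.238 for the first 4, -0.0728 for PRPF and -0.013 for RBM.

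With each library left out in turn, splicing rows called higher numbered 4 to 7, HNRNP rises 0 to 1, U2AF falls 1 to 2, PRPF rises 0 to 1 and falls 3 to 4, and RBM rises 3 to 6 and falls 4 to 7. SR kinase rises were 0 to 1, SR-related rises 0 to 0, other snRNP rises 2 to 3 and falls 6 to 11, early-factor rises 1 to 1, catalytic-step rises 0 to 2, other regulator rises 2 to 4 and SMN and Sm-assembly falls 7 to 8. Medians ranged from -0.369 to -0.327 for SRSF, -0.346 to -0.319 for HNRNP, -0.399 to -0.369 for SNRP, -0.36 to -0.296 for SF3A/SF3B, -0.479 to -0.423 for U2AF, -0.0863 to -0.0267 for PRPF and -0.0483 to 0.0198 for RBM.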
